A study of Mus musculus with 38 samples.

Results

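The genes of apelin (Apln) and of the apelin receptor (Aplnr) were followed in RNA sequencing of 3 cell populations of the mouse heart. They are 2 of the 35682 genes in the count table, found by their symbols, and were selected on the lower Aplnr level of endothelial cells (ECs) after infarction. The Aplnr levels of the EC groups, and the Apln levels of Sham and Control-AMI ECs, are therefore described without a test.

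Apelin is a secreted peptide cut from a longer precursor, and Aplnr is a G protein–coupled receptor at the cell surface. The receptor signals through inhibitory G proteins and β-arrestins, and apelin given to the heart is known to widen vessels and to strengthen contraction. In blood vessels the ligand is known from sprouting tip cells and is induced by hypoxia, while the receptor marks venous and growing endothelium. A second ligand, encoded by Apela, acts on the same receptor.

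The mice were male C57BL/6 of 8 to 12 weeks. Sham mice had an open-chest operation with no ischemia after 6 weeks of daily vehicle by mouth, which was saline with 5% DMSO. Control-AMI mice had the same vehicle, then 30 min of ischemia by coronary ligation and 2 h of reperfusion. EMPA–Pre-AMI mice had empagliflozin (EMPA), an inhibitor of the sodium-glucose cotransporter-2, at 10 mg/kg/d for 6 weeks in that vehicle, and the same ischemia and reperfusion. Each of the 38 libraries pooled cells of 2 hearts, taken from the part below the suture. ECs were sorted as CD45- CD31+ cells and fibroblasts as CD45- CD31- CD90+ cells, while cardiomyocytes were spun down unsorted. In that order of groups there were 4, 4 and 5 libraries of ECs, 4, 5 and 4 of cardiomyocytes, and 4 of each of fibroblasts. The labels do not say which libraries of different populations came from the same hearts.

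Libraries held 1352528 to 2195319 counts in ECs, 2031726 to 4509305 in cardiomyocytes and 1946070 to 2821386 in fibroblasts. Mitochondrial genes took 46.6% to 66% of the cardiomyocyte counts and at most 14.6% elsewhere. The summed level of 10 endothelial markers such as Pecam1 was 2616 to 4772 CPM (counts scaled to the library total) in ECs, 552 to 1323 in cardiomyocytes and 125 to 475 in fibroblasts, with all libraries on 1 scale. The sum of 10 fibroblast genes was 12172 to 18482 CPM in fibroblasts and that of 9 cardiomyocyte genes 44457 to 96567 CPM in cardiomyocytes, so each population carried the markers of its name. Cardiomyocyte libraries thus also held endothelial RNA. Their sum of the 10 fibroblast genes was 475 to 4498 CPM, so they held fibroblast RNA as well. The sample numbers in the labels fall into 4 runs, called sample-sheet lists here, whose meaning is not stated. The study prepared and sequenced all libraries at the same time.

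Apln (ENSMUSG00000037010) lies on the minus strand of chromosome X at 47114019 to 47123775 in GRCm39. Its coding sequence has 231 bases in 2 coding parts, and the peptides that leave the cell are cut from the end of the 77 residues. The final 36 codons, all within the second coding part at chrX:47117179-47117286, are printed in mRNA sense because apelin-36 is read from them. The capitals mark the last 13 codons (chrX:47117179-47117217), those of apelin-13, a short form that activates the receptor.
Apln: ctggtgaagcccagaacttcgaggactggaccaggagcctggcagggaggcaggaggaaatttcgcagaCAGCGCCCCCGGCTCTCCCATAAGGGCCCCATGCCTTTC

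Aplnr (ENSMUSG00000044338) lies on the plus strand of chromosome 2 at 84966569 to 84970267, and its main transcript is 1 exon with the coding bases at 84966977 to 84968107. No exon of another annotated gene overlaps an exon of Apln or Aplnr. The libraries were made from the 3′ end of transcripts, so the reads count transcript ends and do not tell the forms of either gene apart.

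In ECs, Aplnr was lower in every AMI library than in any Sham library, while the groups overlapped for Apln. CPM from here on use TMM factors computed within each population, unless another scale is named. In Sham ECs Aplnr stood at 81.4, 123.6, 118.3 and 111.7 CPM (138 to 260 counts). In Control-AMI ECs it stood at 25.4, 8.17, 36.8 and 8.09 CPM (13 to 56 counts). In EMPA–Pre-AMI ECs it stood at 44.7, 9.73, 50.9, 25.9 and 19.7 CPM (18 to 90 counts). The lowest Sham library was above the highest library of either AMI group, and the AMI groups overlapped each other.

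The means were 108.8 ± 18.9 CPM in Sham (n = 4), 19.6 ± 14 in Control-AMI (n = 4) and 30.2 ± 17.2 in EMPA–Pre-AMI (n = 5). The log2 fold change of Aplnr was −2.47 (SE 0.52) from Sham to Control-AMI, the 3rd lowest of the 10438 genes fitted in ECs. From Sham to EMPA–Pre-AMI it was −1.85 (SE 0.47), the 13th lowest. Between Control-AMI and EMPA–Pre-AMI it was 0.62 (SE 0.52). Of all genes fitted, the Sham and Control-AMI comparison called 6.56% (FDR threshold 0.05), against 2.63% between Control-AMI and EMPA–Pre-AMI and 2.71% between Sham and EMPA–Pre-AMI. In a sorted bulk sample, fewer receptor-bearing cells and less receptor RNA per cell cannot be told apart.

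The same Aplnr values are described here by sample-sheet list. They selected the gene, so they give no separate support for the difference. On list 2, the 3 Sham libraries had 111.7 to 123.6 CPM of Aplnr, the 2 Control-AMI libraries 8.17 and 36.8, and the 3 EMPA–Pre-AMI libraries 9.73 to 50.9. On list 3, the only Sham library had 81.4 CPM and the 2 EMPA–Pre-AMI libraries 19.7 and 25.9. With the list 2 libraries alone the log2 fold change from Sham to Control-AMI was −2.41. List 4 held 2 Control-AMI libraries of ECs and no other group.

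Markers of other cells moved with the Control-AMI group as well. The sum of 10 fibroblast genes, on the scale of all libraries, was 416 to 1097 CPM in Sham ECs, 1487 to 5547 in Control-AMI ECs and 367 to 734 in EMPA–Pre-AMI ECs. Of the 9 fibroblast genes tested in ECs, 8 were higher in Control-AMI than in Sham and all 9 were lower in EMPA–Pre-AMI than in Control-AMI. Their median log2 fold changes were 2.32 and −2.42, beside −0.02 and 0.02 over all genes. In EMPA–Pre-AMI ECs this sum was within or below the Sham range, and Aplnr was below every Sham library. The sum of 10 leukocyte genes was 7.66 to 17.2 CPM in Sham, 20.1 to 404.5 in Control-AMI and 10.9 to 90.5 in EMPA–Pre-AMI. The highest value belonged to Control-AMI replicate 3, which also had the highest Aplnr of its group, and Coro1a was at 0 in every Sham library. Of the 5 leukocyte genes tested, 0 passed edgeR's test in any EC comparison, and 3 had an unadjusted p under 0.05 between Sham and Control-AMI. The part of either cell type in the Aplnr values was not tested.

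The levels were also set against the endothelial markers of the same library. Aplnr had 10.6 to 19.8 counts per 1000 counts of the 10 endothelial markers in Sham ECs, 1.34 to 7.06 in Control-AMI and 1.66 to 7.69 in EMPA–Pre-AMI. The Sham range lay above both AMI ranges. These ratios use the same Aplnr counts that selected the gene, so they give no separate support for the difference. The means were 16.7 ± 4.19, 4.07 ± 2.99 and 4.45 ± 2.45. The difference in mean log2 ratio was −2.37 from Sham to Control-AMI and 0.30 from Control-AMI to EMPA–Pre-AMI, against −2.77 and 0.71 with the library total as denominator.

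**Figure D1:**
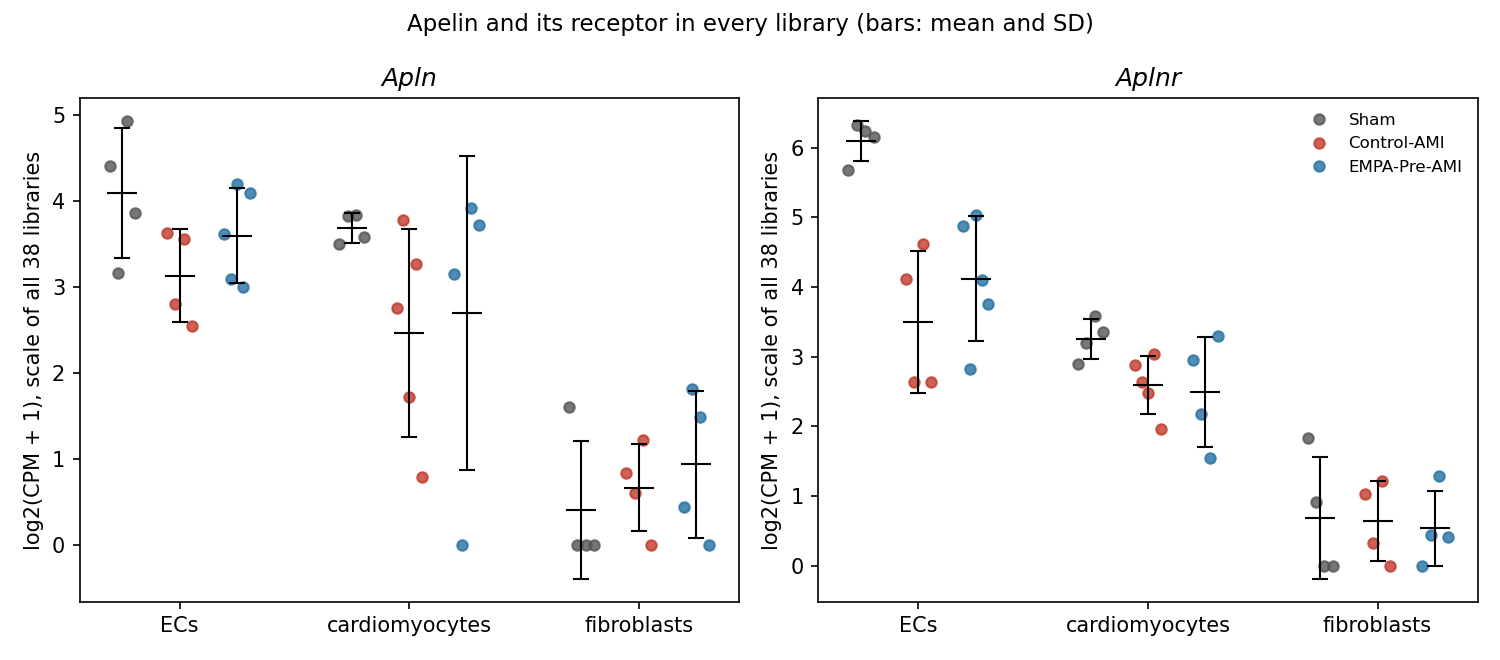
Level of Apln and Aplnr in each of the 38 libraries, as log2(CPM + 1) on the scale of all libraries, by population and group, with the mean and SD of each group as bars. The 4 Sham EC libraries hold the highest Aplnr values, and the fibroblast groups have the lowest means of both genes.

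The ligand was spread more widely. Apln stood at 32.4, 12.4, 46.7 and 21.5 CPM in Sham ECs (26 to 96 counts). It stood at 17.7, 9.34, 16.7 and 7.47 CPM in Control-AMI and at 17.8, 11.9, 27.7, 11.1 and 25.1 CPM in EMPA–Pre-AMI. All 3 groups overlapped.

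Apln averaged 28.3 ± 14.8 CPM in Sham ECs, 12.8 ± 5.15 after vehicle and AMI, and 18.7 ± 7.54 after EMPA and AMI. The log2 fold change from Sham to Control-AMI, given without a test, was −1.13 (SE 0.40). It was −0.75 without Sham replicate 3, the library with the most Apln. Against Control-AMI, EMPA–Pre-AMI gave 0.54 (SE 0.39, 95% interval −0.27 to 1.34, FDR = 0.666 by edgeR's quasi-likelihood test). Against Sham it gave −0.60 (SE 0.36, 95% interval −1.35 to 0.16, FDR = 0.493, same test), so neither difference passed. Relative to the endothelial markers Apln averaged 4.25 ± 2.31, 2.65 ± 1.37 and 2.81 ± 1.11 counts per 1000, with overlapping groups.

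Over the 13 EC libraries the Pearson correlation of Apln and Aplnr in log2 CPM was 0.68, and 0.48 after the group means were taken out. It is a description of libraries that share their groups and their depth.

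In cardiomyocytes both genes had few counts. Apln had 4.51, 5.83, 5.81 and 4.83 CPM in Sham, and 2.47, 5.75, 0.985, 4.0 and 0.323 CPM in Control-AMI. In EMPA–Pre-AMI it had 3.60, 0, 6.22 and 5.28 CPM. The Sham libraries lay close together, while both AMI groups ran from near 0 to above the Sham mean.

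The means of Apln were 5.24 ± 0.678, 2.71 ± 2.22 and 3.78 ± 2.74 CPM. The log2 fold change was −0.95 (SE 0.57, FDR = 1.0) from Sham to Control-AMI, 0.60 (SE 0.60, FDR = 0.562) from Control-AMI to EMPA–Pre-AMI and −0.36 (SE 0.59, FDR = 0.781) from Sham to EMPA–Pre-AMI, by edgeR. The 95% intervals were −2.14 to 0.23, −0.66 to 1.85 and −1.59 to 0.88. There were 0 to 24 counts per library, and none of the differences passed the test.

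Aplnr had 2.82, 3.64, 4.79 and 4.07 CPM in Sham cardiomyocytes, 2.74, 2.37, 1.97, 3.33 and 1.29 in Control-AMI and 3.09, 1.81, 0.849 and 3.87 in EMPA–Pre-AMI. All groups overlapped, with 3 to 16 counts per library. The receptor's log2 fold changes were −0.69 (SE 0.42, FDR = 1.0), 0.01 (SE 0.49, FDR = 0.992) and −0.68 (SE 0.47, FDR = 0.445) in the same order, by edgeR. The 95% interval for Sham to Control-AMI was −1.57 to 0.19. Whether the change differed between populations was not tested. Over all genes in cardiomyocytes, 0.0655%, 0.0218% and 0.338% were called in the 3 comparisons.

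In fibroblasts both genes were below the filter on low counts. Apln had 0 to 8 counts per library and Aplnr 0 to 10, where a count of 0 allows up to 1.06 to 1.54 CPM, counting error only. In the order Sham, Control-AMI, EMPA–Pre-AMI, group means were 0.751 ± 1.5, 0.960 ± 0.808 and 1.71 ± 1.74 CPM for Apln and 1.27 ± 1.77, 0.962 ± 0.922 and 0.780 ± 0.917 for Aplnr (n = 4 each). The exact two-sided permutation test of log2(CPM + 1) gave p = 0.371 to 1 over the 6 comparisons, and the smallest p it can give is 0.0286. No difference was detectable at this depth. All 5 fibroblast libraries of sample-sheet list 1 had 0 counts of Apln, while the 7 of lists 3 and 4 had 1 to 8, and Sham replicate 1 is the only Sham library among those 7. The list and the group are therefore tied in the Sham values. Over all genes in fibroblasts, edgeR called 4.16% between Sham and Control-AMI and 5.11% from Sham to EMPA–Pre-AMI. It called 0% between the AMI groups, where 170 genes had an unadjusted p under 0.05 and DESeq2 called 0.

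The populations were compared in the EMPA–Pre-AMI libraries, since the genes were not selected on a difference between populations, with the EC levels of Aplnr kept as a description. With all 38 libraries in 1 fit and on 1 scale, Aplnr averaged 19 ± 10.8 CPM in ECs (n = 5), 5.27 ± 3.14 in cardiomyocytes (n = 4) and 0.533 ± 0.626 in fibroblasts (n = 4). The EC level was above that of cardiomyocytes by 1.87 (SE 0.58) and above that of fibroblasts by 5.05 (SE 0.71) on the log2 scale, again without a test. Cardiomyocytes exceeded fibroblasts by 3.18 (SE 0.91, FDR = 0.00311, edgeR). The order of the Aplnr means was thus ECs, cardiomyocytes, fibroblasts. Both genes were below the filter in fibroblasts and passed it in this fit only through the other populations. Tests against fibroblasts are therefore tilted toward a difference.

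Apln averaged 11.8 ± 4.76 CPM in ECs, 8.53 ± 6.25 in cardiomyocytes and 1.17 ± 1.19 in fibroblasts on that scale. It was higher in ECs than in fibroblasts by 3.31 (SE 0.73, FDR = 0.00032) and in cardiomyocytes than in fibroblasts by 2.92 (SE 0.81, FDR = 0.00228), by edgeR. The same limit of the filter holds for these tests against fibroblasts. Between ECs and cardiomyocytes the log2 difference of Apln was 0.38 (SE 0.62, FDR = 0.609, 95% interval −0.87 to 1.64) and did not pass. Such calls were common, at 40.6% of genes between ECs and fibroblasts, 60.2% between ECs and cardiomyocytes and 55.8% between cardiomyocytes and fibroblasts.

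The endothelial RNA of the cardiomyocyte libraries gives a measure to set beside these levels. In Sham the 10 endothelial markers stood in cardiomyocytes at 16.6% to 26.8% of their EC level. Apln stood at 67.2% and Aplnr at 12.7%. In Control-AMI the markers stood at 20.9% to 47.8%, Apln at 73.3% and Aplnr at 41.8%, and in EMPA–Pre-AMI the markers at 15.3% to 38.6%, Apln at 72.3% and Aplnr at 27.7%. Apln was thus above all 10 markers in each group, while Aplnr was below all of them in Sham and within their range in the AMI groups.

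Within a library this ratio needs no common scale. Sham cardiomyocytes had 11.6 to 17.6 counts of Apln per 1000 counts of endothelial markers, against 1.98 to 7.43 in Sham ECs, and the populations did not overlap. In the AMI groups they did overlap, at 0.86 to 11.4 against 1.53 to 4.34 in Control-AMI and at 0 to 25.6 against 1.61 to 4.19 in EMPA–Pre-AMI. For Aplnr, Sham cardiomyocytes had 7.26 to 14.5 per 1000, which overlapped the 10.6 to 19.8 of Sham ECs. Which cells of the cardiomyocyte libraries held Apln was not tested. In fibroblasts the endothelial markers stood at 0.687% to 46.8% of their EC level over the groups, Apln at 2.88% to 9.88% and Aplnr at 1.25% to 5.22%.

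**Figure D2:**
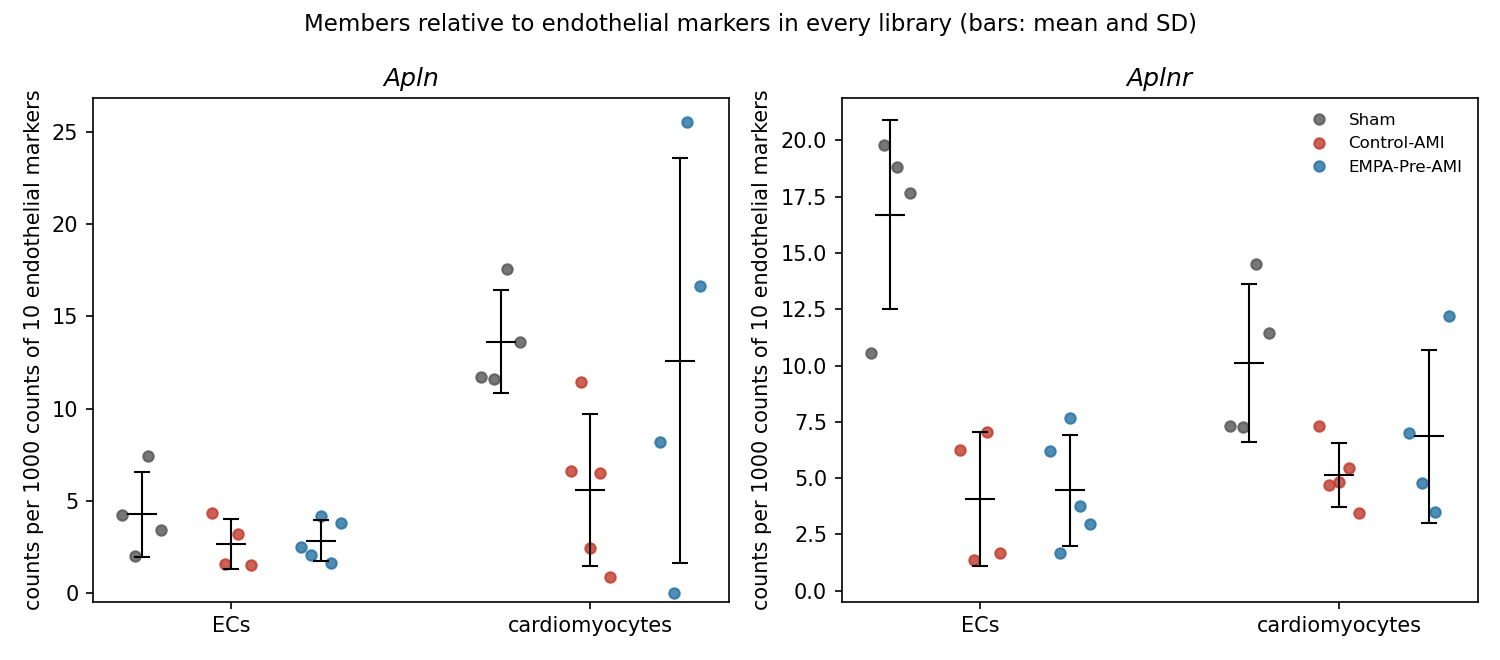
Counts of Apln and Aplnr per 1000 counts of 10 endothelial markers in each EC and cardiomyocyte library, with the mean and SD of each group as bars. For Apln, the Sham cardiomyocytes (11.6 to 17.6) sit above the Sham ECs (1.98 to 7.43), and for Aplnr, Sham ECs sit above both AMI groups of ECs.

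The pathway around the pair was read from a list of 18 other genes. Apela, the second ligand, had at most 8 counts in any library and was not tested. Among the others are Furin, a protease that cuts precursors, Mme, a peptidase that can cut apelin, the G protein subunits, arrestins and receptor kinases, Agtr1a, and the targets Mef2c, Klf2, Klf4 and Nos3.

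Of the 15 pathway genes tested in ECs, 1 rose and 1 fell between Sham and Control-AMI, where 6.56% of all genes were called, and 1 of these 15 was called on list 2 alone. Klf2, a transcription factor of endothelium under flow, fell by a log2 fold change of −1.75 (SE 0.28, FDR = 0.00223, edgeR). Sham ECs had 1054, 1760, 1450 and 1887 CPM of Klf2, Control-AMI 541.5, 349, 601.5 and 339.9, and EMPA–Pre-AMI 863, 493, 496, 350 and 686. As with Aplnr, Sham lay above both AMI groups. Against Sham, EMPA–Pre-AMI also had less Klf2 (−1.41, SE 0.26, FDR = 0.00631), while its difference from Control-AMI, 0.34 (SE 0.26, FDR = 0.698), did not pass.

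Mme, which encodes neprilysin, rose by 4.19 (SE 0.67, FDR = 0.000926, edgeR) between Sham and Control-AMI. It passed the filter on low counts only through the Control-AMI libraries, where it was high. Its FDR values against that group are therefore tilted toward a difference. It had 0.487 to 2.78 CPM in Sham ECs, 58.1, 5.84, 10.0 and 31.8 in Control-AMI replicates 1 to 4 and 1.13 to 2.16 in EMPA–Pre-AMI, where it was lower than in Control-AMI by −4.01 (SE 0.60, FDR = 0.00206). This last call was lost with a term for the list, and on list 2 alone. The fibroblast sum of those Control-AMI libraries was 5547, 1487, 1648 and 3099 CPM, so the libraries with the most Mme also had the most fibroblast RNA. On the scale of all libraries Mme averaged 65.8 ± 19.8 CPM in Sham fibroblasts and 0.937 ± 0.625 in Sham ECs. The part of fibroblast RNA in the rise was not tested.

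The other 13 pathway genes did not pass the test in any EC comparison. Between Sham and Control-AMI the median log2 fold change of the 15 was −0.12, with 4 above 0 and 11 below, beside −0.02 over all genes. The transducers showed Gnai2 at 1668 and 1556 CPM (log2 fold change −0.10, FDR = 0.73), Arrb1 at 97.9 and 90.2 (−0.12, FDR = 0.835) and Grk2 at 41.7 and 37.5 (−0.15, FDR = 0.735), by edgeR. Nos3, the endothelial nitric oxide synthase, had 205.4 and 162.4 CPM (−0.34, FDR = 0.304). Gnai3 had 39.7 and 25.6 CPM (−0.63, FDR = 0.0928). Of the 15, Mme alone was called between the AMI groups, and Klf2 alone between Sham and EMPA–Pre-AMI.

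**Figure D3:**
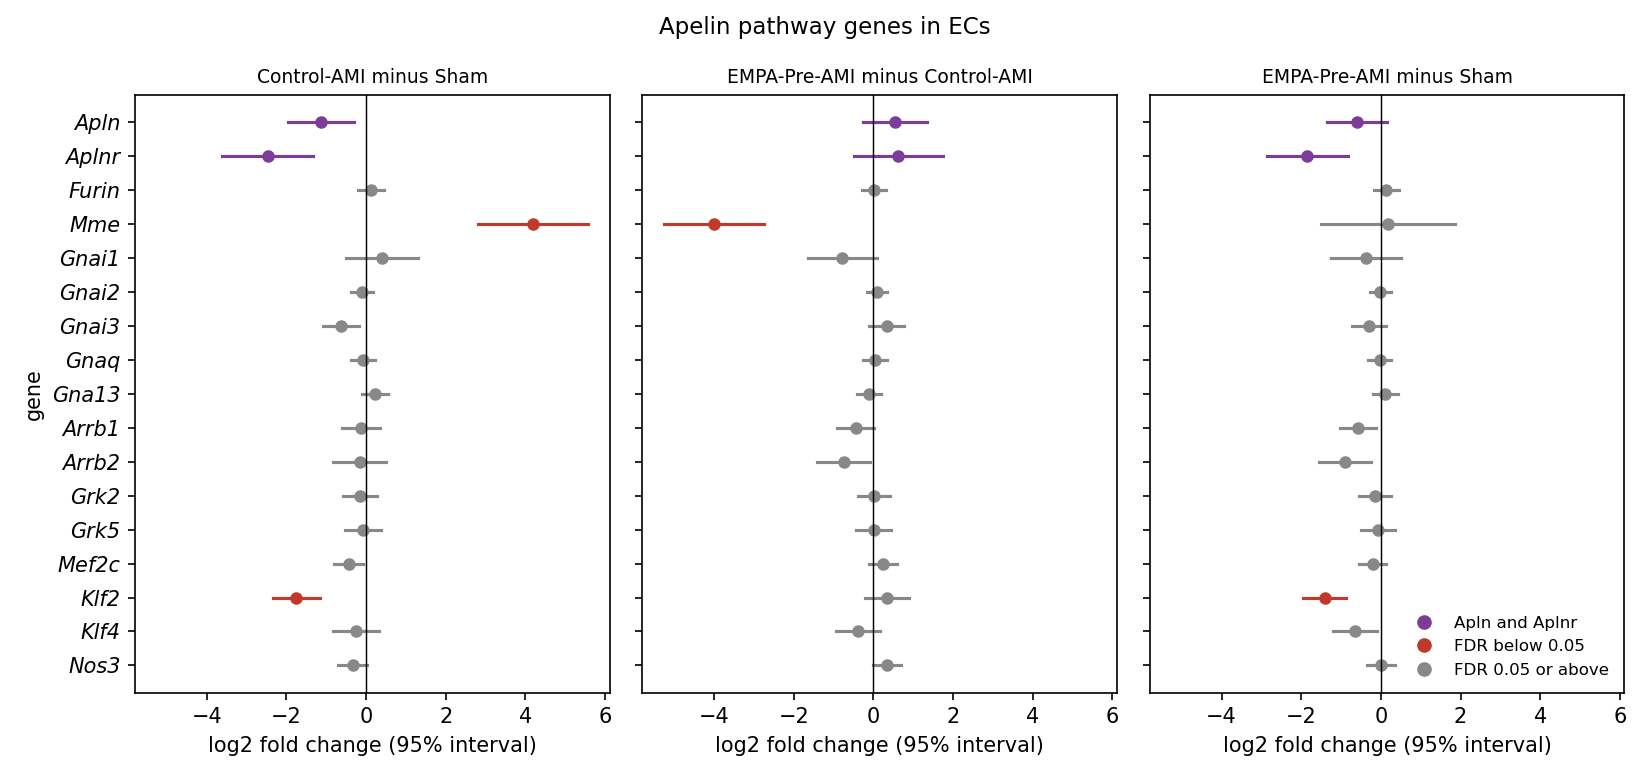
Log2 fold change with its 95% interval for Apln, Aplnr and the 15 other pathway genes tested in ECs, in the 3 comparisons. Aplnr (−2.47) and Klf2 (−1.75) lie lowest and Mme (4.19) highest between Sham and Control-AMI, and only Mme is called between the AMI groups, a call lost with a term for the list. Mme passed the filter on low counts only through the Control-AMI libraries.

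Klf2 was also lower after infarction in fibroblasts. Most Sham and most Control-AMI libraries of fibroblasts were on different sample-sheet lists, so list and group are partly tied here. Over all genes 4.16% were called between Sham and Control-AMI and 5.11% between Sham and EMPA–Pre-AMI. Of 16 pathway genes tested in fibroblasts, 2 fell between Sham and Control-AMI, Klf2 (−1.54 on the log2 scale, SE 0.24, FDR = 0.00155, from a mean of 450.8 CPM to 155.6) and Arrb2, an arrestin (−1.34, SE 0.33, FDR = 0.032, from 43.2 CPM to 16.9), by edgeR. Between Sham and EMPA–Pre-AMI 3 fell, Klf2 (−1.67, FDR = 0.000698), Arrb2 (−1.28, FDR = 0.0365) and Arrb1 (−1.05, FDR = 0.0132), and 0 of the 16 were called between the AMI groups by edgeR or DESeq2, with 0 at an unadjusted p under 0.05. Arrb2 was not called in either comparison without Sham replicate 2, Sham replicate 3 or Control-AMI replicate 1. It was also not called from Sham to Control-AMI without Control-AMI replicate 3 or 4, nor from Sham to EMPA–Pre-AMI without Sham replicate 4 or any 1 of the EMPA–Pre-AMI libraries. Sham replicate 2 had a leukocyte sum of 319.8 CPM against 2.54 to 15.4 in the other Sham libraries, and the part of leukocyte RNA was not tested. Of 16 pathway genes tested in cardiomyocytes, 0 were called by edgeR in any comparison, with 1, 2 and 1 at an unadjusted p under 0.05, and DESeq2 called 1 between the AMI groups and 0 in the others.

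Pathway genes were spread unevenly over the populations. In the EMPA–Pre-AMI libraries Nos3 was higher in ECs than in fibroblasts by 5.17 (SE 0.60, FDR = 1.15e-08) and than in cardiomyocytes by 2.93 (SE 0.53, FDR = 1.85e-05), by edgeR. Mme went the other way, with a log2 difference of −5.82 from fibroblasts to ECs (SE 0.48, FDR = 1.63e-12). On the scale of all libraries it averaged 1.0 CPM in these ECs and 59.7 CPM in these fibroblasts. It passed the filter in this fit through the groups where it was high, so this test is tilted toward a difference. Furin differed from fibroblasts by −0.23 (SE 0.18, FDR = 0.337) and Arrb1 by −0.09 (SE 0.24, FDR = 0.81), which did not pass.

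Apln belongs to the genes that hypoxia induces, and some of the others rose in ECs. Of 13 such genes tested, 4 were higher and 1 lower in Control-AMI than in Sham, with a median log2 fold change of 0.05. Of all 10438 genes, 427 were higher and 258 lower there. Hk2 (2.82, FDR = 0.00315) and Pfkfb3 (1.89, FDR = 0.0425), both of glycolysis, Bnip3 (1.24, FDR = 0.0226) of mitochondrial turnover and Adm (1.16, FDR = 0.00977), which encodes the vasodilator adrenomedullin, rose by edgeR. From Sham to EMPA–Pre-AMI, where 2.71% of all genes were called, Pfkfb3 (2.37, FDR = 0.0214) and Bnip3 (1.74, FDR = 0.0027) rose as well. Egln1, an oxygen sensor, was the gene that fell (−0.82, FDR = 0.00588) and is named outside the rule, after its value was seen.

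Apelin also marks tip cells. Of 13 other tip cell genes tested, 6 were lower and 1 higher in Control-AMI than in Sham, where 258 of all 10438 genes were lower and 427 higher. The median log2 fold change of the list was −0.60, beside −0.48 for the pan-endothelial markers. Cxcr4, a chemokine receptor, fell from 33.5 to 9.73 CPM (−1.81, SE 0.35, FDR = 0.00346, edgeR), Dll4, a Notch ligand, from 73.4 to 26.9 (−1.46, SE 0.24, FDR = 0.00116) and Pdgfb, a growth factor for mural cells, from 325.5 to 141.4 (−1.20, SE 0.18, FDR = 0.000515). The gene that rose was Pgf (1.38, SE 0.25, FDR = 0.00238), a growth factor of the VEGF family. Cxcr4 (−1.48, FDR = 0.0103), Dll4 (−0.81, FDR = 0.0477) and Pdgfb (−0.67, FDR = 0.0259) were also lower in EMPA–Pre-AMI than in Sham. Against Control-AMI, EMPA–Pre-AMI had lower Lamb1 (−1.01, FDR = 0.0408) and Pgf (−0.86, FDR = 0.0474), and 0 of the 13 higher. Of all genes, 36 were higher and 238 lower. The list leaned upward in this comparison all the same, with 10 of 13 log2 fold changes above 0 and a median of 0.35, beside 0.02 over all genes. The pan-endothelial markers shared this lean, with all 10 above 0 and a median of 0.30. An unadjusted p under 0.05 was found for 8 of the 13 tip cell genes, 4 of the 10 markers and 1274 of all 10438 genes.

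Other receptors of the same class were read from a further list. Of 13 other endothelial G protein–coupled receptor genes tested, 1, Cxcr4, was lower and 0 were higher in Control-AMI than in Sham, with a median of −0.38 and a share of calls near that of all genes (6.56%). The most abundant, Adgrf5, had 1394 and 1331 CPM (log2 fold change −0.07, FDR = 0.859, edgeR), and S1pr1, the receptor of sphingosine-1-phosphate, had 535.9 and 672.4 CPM (0.33, FDR = 0.498). From Sham to EMPA–Pre-AMI, S1pr1 rose (1.10, SE 0.23, FDR = 0.0139), the direction opposite to that of Aplnr. The 10 pan-endothelial markers had a median of −0.48 between Sham and Control-AMI, with 1 called, Emcn (−0.56, FDR = 0.0337).

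Lists of vessel types showed where the receptor's usual neighbours stood. Of 9 venous genes tested, Selp, a leukocyte adhesion molecule, rose (3.36, SE 0.86, FDR = 0.0446, edgeR) and Nrp2 fell (−0.66, FDR = 0.0477) between Sham and Control-AMI, with a median of 0.11. In that comparison, also used for the next counts of capillary and arterial genes, 6.56% of all genes were called. Of 11 capillary genes 1 rose, Lpl (1.00, FDR = 0.00413), and 3 fell, Kdr (−1.08, FDR = 0.00413), Fabp4 (−0.73, FDR = 0.0213) and Btnl9 (−0.68, FDR = 0.0211). Of 11 arterial genes 1 rose and 4 fell, led by Dll4 and Hey1 (−1.16, FDR = 0.0101). Between the AMI groups all 11 capillary genes had a log2 fold change above 0, with a median of 0.62, and EMPA–Pre-AMI was higher for 3, Rgcc (0.98, FDR = 0.0105), Fabp4 (0.81, FDR = 0.0148) and Cd300lg (0.64, FDR = 0.028). Of the arterial genes 4 were higher there, led by Stmn2 (1.11, FDR = 0.00583), Hey1 (1.06, FDR = 0.0232) and Sox17 (0.77, FDR = 0.037), and Fbln5 was lower (−1.09, FDR = 0.0133), with a median of 0.49. The 10 pan-endothelial markers were also all above 0 between the AMI groups, with a median of 0.30 and 1 called. Of the 13 other endothelial G protein–coupled receptor genes, 12 were above 0 there, with a median of 0.32. The upward shift was thus not particular to capillary or arterial genes. Over all genes, 274 (2.63%) were called in this comparison, and 9 with a term for the list. Between Sham and Control-AMI, 1 of 8 lymphatic and endocardial genes, Pdpn (1.76, FDR = 0.00262), rose by edgeR. Most of that list went the other way, with 6 of the 8 below 0 and a median of −0.36. Of 10 mural and 8 cardiomyocyte genes tested there, 0 were called, with 0 at an unadjusted p under 0.05. Between the AMI groups, 1 lymphatic and endocardial gene and 1 cardiomyocyte gene were lower in EMPA–Pre-AMI, and 0 mural genes were called. All 8 cardiomyocyte genes had a log2 fold change below 0 there, with a median of −1.01. Of these, 3 had an unadjusted p under 0.05, as did 3 mural genes. Kdr, Cxcr4 and Dll4 each stand in more than 1 list.

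The genes whose log2 CPM followed Aplnr most closely over the 13 EC libraries were Inppl1 (Pearson's r = 0.93), Ppp1r16b (0.92), St8sia4 (0.92), C2cd5 (0.92), Ipo11 (0.91), Itpkb (0.91), Tbxa2r (0.90) and Kdr (0.90). With the group means taken out, r was 0.73 to 0.89. Kdr, the main VEGF receptor of endothelium, averaged 3982 CPM in Sham, 1882 after vehicle and AMI and 2723 after EMPA and AMI, and Tbxa2r, the thromboxane receptor, 11.9, 5.46 and 4.79 CPM. These libraries share their groups, so genes that moved with the groups in any way have a high r.

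The opposite pattern was strongest for Nsd3 (r = −0.94), Map3k14 (−0.92), Il17ra (−0.92) and Selp (−0.92), and −0.78 to −0.83 with group means taken out. Selp had 11.7 to 18.0 CPM in Sham ECs. In Control-AMI it had 55.8, 352.5, 53.5 and 152.5 CPM in replicates 1 to 4, where Aplnr had 25.4, 8.17, 36.8 and 8.09. In EMPA–Pre-AMI replicates 1 to 5 it had 51.1, 277.9, 59.9, 233.5 and 59.2 CPM, where Aplnr had 44.7, 9.73, 50.9, 25.9 and 19.7. Selp was chosen for this pattern over these same libraries, and EMPA–Pre-AMI replicate 5, with 59.2 CPM of Selp and 19.7 of Aplnr, was low in both within its group.

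**Figure D4:**
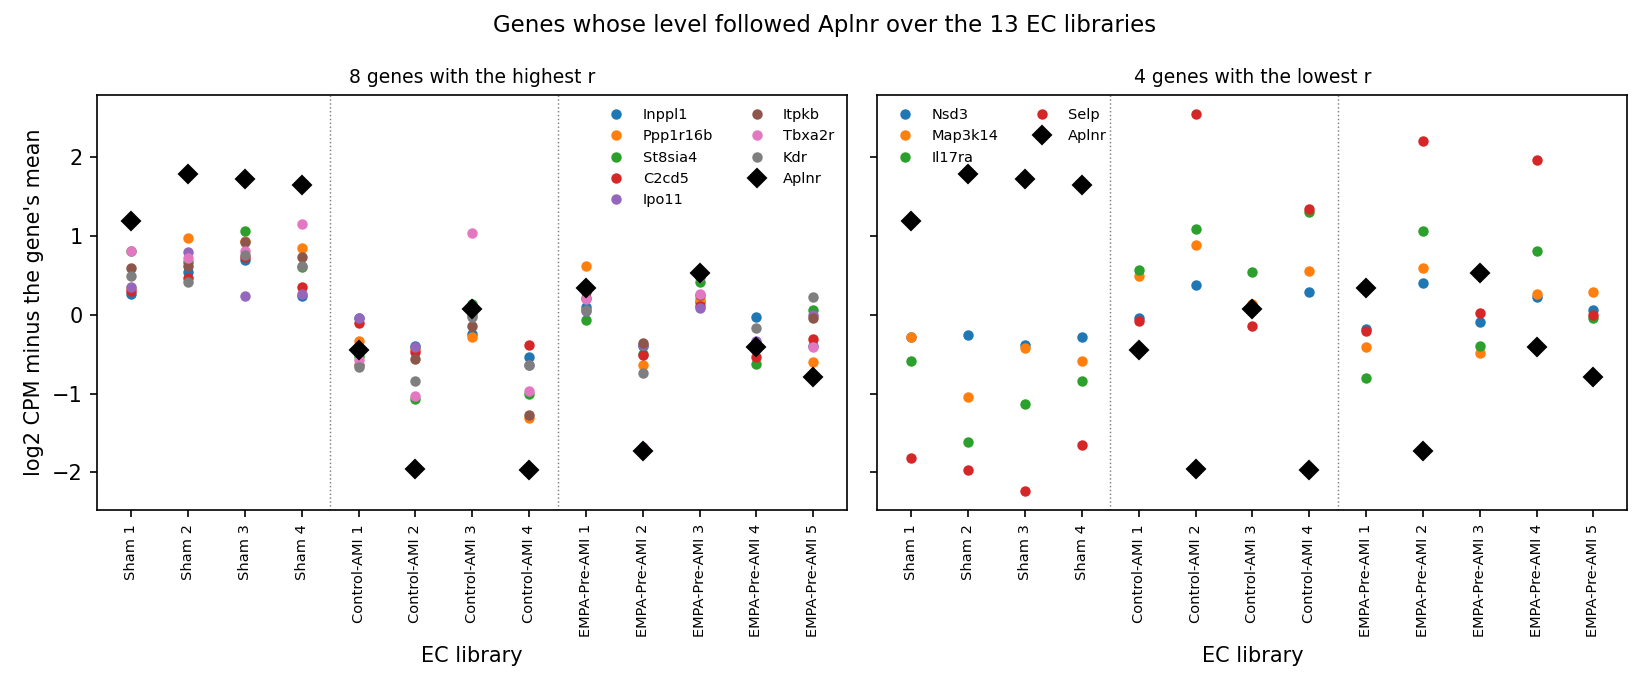
Log2 CPM minus each gene's mean over the 13 EC libraries, for Aplnr (black diamonds) with the 8 genes of highest r (left) and the 4 genes of lowest r (right). Aplnr and the genes on the left are highest in the 4 Sham libraries, and those on the right are lowest on average in Sham.

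For Apln, which on average had its highest level in ECs as well, the closest genes were Kctd12b (r = 0.88), Nes (0.88), Jam3 (0.86), Mtss1 (0.86) and Dusp7 (0.85), and 0.78 to 0.85 with group means taken out. Nes, which encodes the intermediate filament nestin, averaged 337.7 CPM in Sham, 181.6 after vehicle and AMI and 228.4 after EMPA and AMI. None of these 5 is among the 8 that followed Aplnr.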

How the data were processed

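RNA of 3 cell populations was sequenced in 38 libraries by the QuantSeq 3′ FWD kit. The authors trimmed the reads (cutadapt 2.8) and assigned them with Salmon to GRCm39 (Ensembl 106), and they deposited estimated counts per gene, not normalized or filtered. These were rounded to whole numbers here. Symbols came from another GRCm39 annotation release, which matched 35407 of 35682 genes, and the apelin codons from the GRCm39 genome.

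Genes were kept by filterByExpr (minimum count 10) and scaled by TMM. Within each population edgeR 4.0.16 in R 4.3.3 (glmQLFit and glmQLFTest, robust) fitted the 3 groups together, and populations were compared in 1 fit of all libraries. FDR is the Benjamini-Hochberg adjusted p over all genes, with a threshold of 0.05. SE is the log2 fold change divided by the root of F. Correlations used log2 CPM with a prior count of 2, and genes below the filter a pseudocount of 1. Intervals are 95%. The count tests were tested on simulated data. P-values measure the spread between libraries of pooled hearts.

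The genes, lists and rules were chosen with earlier results of these data known. Named were Apln, Aplnr, pathway genes, up to 4 called genes per list with the largest fold changes (else the 2 most abundant), the 8 highest and 4 lowest correlations with Aplnr and the 5 highest with Apln. Egln1 was named beside the rule. DESeq2 1.42.0, no filter, other scaling and fits with the replicate number or the sample-sheet list were alternatives. The values of 1 pathway gene are not reported here.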

Additional observations from a re-analysis of the deposited data

Results flagged for a closer look

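Of the 18 sets of libraries looked at, in 1 set a library stood far from the others of its group, where chance gives about 1 in 20. Apln in fibroblasts of Sham replicate 1 was 3.00 CPM (8 counts), while the other 3 Sham libraries were at 0. That library is on sample-sheet list 4 and the others are on list 1, so list and library cannot be told apart here.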

How the results depend on the processing

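In ECs Aplnr kept its direction under the alternatives run, from −2.93 to −2.20 between Sham and Control-AMI and from 0.35 to 1.07 between the AMI groups, and Apln ranged from −1.38 to −0.75 and from 0.35 to 0.73. The calls over all genes moved more, and the causes were not tested. Between Sham and Control-AMI, 685 became 234 with the sample-sheet list as a covariate (list term), 180 on list 2 alone (fewer libraries) and 341 (without Sham replicate 3) to 770 with a library left out. Between the AMI groups, 274 became 458 with no filter, 9 with the list term, 3 on list 2 alone and 136 (without Control-AMI replicate 1) to 399 with a library left out, and Mme was not called with the list term or on list 2 alone. Between Sham and EMPA–Pre-AMI, 283 became 421 by DESeq2, 397 with no filter, and 159 (without Sham replicate 3) to 351 with a library left out.

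Libraries of the same replicate number, with group means taken out, had r of −0.06 to 0.21 in ECs, −0.09 to 0.17 in cardiomyocytes and −0.11 to 0.48 in fibroblasts (12 pairs each). Pairs of different numbers were not set beside them, so whether the numbers pair the libraries was not tested. The replicate block gave 149 calls between the AMI groups of ECs, 0 and 3 in cardiomyocytes between the AMI groups and between Sham and Control-AMI, and −0.18 for Aplnr in cardiomyocytes between the AMI groups. It changed no other call of Apln or Aplnr.

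In cardiomyocytes the direction was unsettled. Aplnr between the AMI groups (0.01) ran from −0.40 to 0.36 with a library left out, and from Sham to EMPA–Pre-AMI the list term gave 0.011 for Apln and 0.024 for Aplnr. Gene calls from Sham to Control-AMI (6) became 18 by DESeq2, 14 with no filter, 20 with the list term or with 2 groups fitted. Between the AMI groups (2) they became 812 by DESeq2, 338 with no filter, 0 with the list term or 2 groups, and 1498 without EMPA–Pre-AMI replicate 4. From Sham to EMPA–Pre-AMI (31) they became 198, 94, 2, 19 and 943 in that order.

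In fibroblasts, with a library left out, the difference in mean log2(CPM + 1) of Aplnr ran from −0.31 to 0.43 between Sham and Control-AMI, from −0.45 to 0.10 between the AMI groups and from −0.47 to 0.30 between Sham and EMPA–Pre-AMI. That of Apln between the AMI groups ran from −0.046 to 0.70. Calls from Sham to Control-AMI (445) became 772 by DESeq2, 819 with the list term and 228 without Sham replicate 2, and to EMPA–Pre-AMI (546) 858, 985 and 264. DESeq2, the block and the list term could not be fitted for the pair in fibroblasts, where the filter removed both genes.

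Of the 8 genes closest to Aplnr, 3 were among the 8 closest by Spearman's rho and 1 with group means taken out. Counts of 0 to 24 limit what cardiomyocytes and fibroblasts can show.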
